A study of Mus musculus with 6 samples.

Results

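The proteasome genes were taken as every gene of the count tables whose symbol is Psm, a letter from a to g and a number, which gave 48 of 24411 genes. They were measured by bulk RNA sequencing of liver from male mice, 24 weeks old, of the strain Cyr61fl/fl, after 12 weeks of a NASH (non-alcoholic steatohepatitis) diet. The 3 libraries of genotype Control and the 3 of genotype Cyr61KO (called Cyr61 KO here) share strain, sex, age and diet. The labels give neither the means of deletion nor the cells it took place in, and leave unsaid whether every library had its own mouse. The p-values here therefore reflect library-to-library spread, which may be technical.

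The proteasome is the barrel-shaped protease that degrades ubiquitin-tagged proteins. Its 20S core stacks rings of alpha subunits (Psma genes) around rings of beta subunits (Psmb genes), of which Psmb6, Psmb7 and Psmb5 carry the caspase-like, trypsin-like and chymotrypsin-like cutting sites. The 19S cap of ATPases (Psmc genes) and further subunits (Psmd genes) binds tagged substrates and unfolds them. In white blood cells, and in other cells after interferon gamma, Psmb9, Psmb10 and Psmb8 take the places of Psmb6, Psmb7 and Psmb5 to form the immunoproteasome, whose peptides suit MHC class I presentation, and Psme1 and Psme2 form the PA28 activator that opens the core.

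The genes of the catalytic subunits lie apart in the genome. Psmb9 (ENSMUSG00000096727.3) and Psmb8 (ENSMUSG00000024338.15) lie in the MHC region on chr17:34181987-34187764 and chr17:34197721-34201454, on opposite strands and on either side of the peptide transporter gene Tap1, while Psmb10 (ENSMUSG00000031897.9) lies on chr8:105935735-105938444. Psmb5 (ENSMUSG00000022193.7) is on chr14:54614119-54618022, Psmb6 (ENSMUSG00000018286.6) on chr11:70525367-70527858 and Psmb7 (ENSMUSG00000026750.6) on chr2:38588036-38644087. Psme1 and Psme2 are neighbours on chromosome 14, on opposite strands with 5911 bases between them. All coordinates are on GRCm38 (mm10), from the GENCODE M21 annotation.

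Stretches before the RefSeq start (GRCm38.p6) are shown for a constitutive pair and an inducible gene of the main comparison, each with a match to a searched motif. Capitals mark the match to a searched motif: the antioxidant response element core TGACNNNGC, bound by NRF1 and NRF2, in Psmb5 and Psmb6, and the gamma-activated site TTCNNNGAA, which reads the same on both strands, in Psmb8. The stretches are chr14:54618023-54618245 (minus strand), chr11:70525107-70525356 (plus strand) and chr17:34198088-34198116 (plus strand).
Psmb5: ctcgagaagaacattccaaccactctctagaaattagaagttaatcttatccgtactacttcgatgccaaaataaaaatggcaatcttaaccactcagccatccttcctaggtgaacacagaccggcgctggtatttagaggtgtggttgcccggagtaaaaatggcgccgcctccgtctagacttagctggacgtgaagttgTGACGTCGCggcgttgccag
Psmb6: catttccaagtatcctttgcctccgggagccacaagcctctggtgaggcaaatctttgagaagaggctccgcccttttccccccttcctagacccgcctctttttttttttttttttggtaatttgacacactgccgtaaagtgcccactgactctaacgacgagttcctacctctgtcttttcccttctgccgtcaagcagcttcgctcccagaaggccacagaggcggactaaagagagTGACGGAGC
Psmb8: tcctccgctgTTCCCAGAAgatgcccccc
The Psmb5, Psmb6 and Psmb8 matches begin 47, 9 and 97 bases before the start. The Psmb8 stretch lies within an exon of a longer GENCODE transcript, so only the surroundings of the match are given. Among 250-base windows before RefSeq starts, on either strand, TGACNNNGC was found in 10.2% of all 32851 windows and in those of 5 of 40 proteasome genes with a window (Psmb5, Psmb6, Psmc6, Psmd12 and Psmd9). TTCNNNGAA was found in 7.02% of all windows and in those of 2 of the 40 (Psmb8 and Psmg1). The windows of the inducible genes Psmb9 and Psmb10 held no match to any searched motif. The interferon-stimulated response element (GAAA, any 2 bases, GAAA) was in 2.98% of all windows and in those of Psmb3, Psmd4 and Psmd9. The NF-kB consensus decamer was in 0.14% of all windows and in no window of these genes. A match is a description of letters and not of binding.

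Gene counts per library ran from 21032878 to 40377742, and proteasome genes took 0.365% to 0.551% of them. Cyr61 was at 15.6 to 32.4 CPM in the controls and at 2.66 to 3.77 CPM in the knockouts, where CPM is the count scaled to a common library size with TMM factors. Control replicate 2 differed from the rest: 50.9% of its reads fell in genes (82.8% to 87.6% elsewhere) and 19.4% mapped to several positions (3.74% to 5.73% elsewhere). The nuclear RNA Malat1 reached 3738 CPM there and at most 128 CPM in any other library. Summed hepatocyte markers were at 38296 CPM in that library and at 91174 to 125252 CPM in the others. Values without control replicate 2 are given beside many of the results on which it weighs, but not all. Values per library are listed in the order of replicates 1, 2 and 3.

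Of the 48 proteasome genes, 47 passed the low-count filter. The exception was Psmb11, the thymus-specific beta subunit, at 0 counts in every library, which allows at most 0.0841 to 0.106 CPM at a limit of 3 counts per library. No tested member passed the edgeR quasi-likelihood test at an adjusted p under 0.05, 0 lower and 0 higher, where 2.37% of all 13563 tested genes were called lower and 1.07% higher. At an unadjusted p under 0.05 there were 6 lower and 1 higher, or 12.8% and 2.13% of members, against 16.1% and 11.3% of all genes. DESeq2 called 3 members lower (Psmb8, Psmb9 and Psmg4) and 0 higher, where it called 10.2% and 6.53% of all genes. Limma voom with quality weights called 10 lower and 1 higher, or 21.3% and 2.13% of members, against 17.8% and 15.3% of all genes. Those lower were Psmb8, Psmb9, Psmb10, Psme1, Psme2, Psmd8, Psmd10, Psmg2, Psmg3 and Psmg4, and Psme4 was higher. Below, a gene is said to pass by edgeR unless another tool is named. Without a low-count filter edgeR called 1 lower (Psmg4), against 3.72% of all genes. Negative log2 fold changes were found in 29 of 47 members (61.7%) and in 51.6% of all genes. The members' median log2 fold change (Cyr61 KO over control) was -0.12, beside -0.03 over all tested genes.

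By role, the 3 immunoproteasome genes had log2 fold changes from -1.04 to -0.96 and the 3 constitutive catalytic genes from -0.34 to 0.03, and none of the 6 was called by edgeR. The plot of catalytic subunit CPM by library shows their values.

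**Figure D1:**
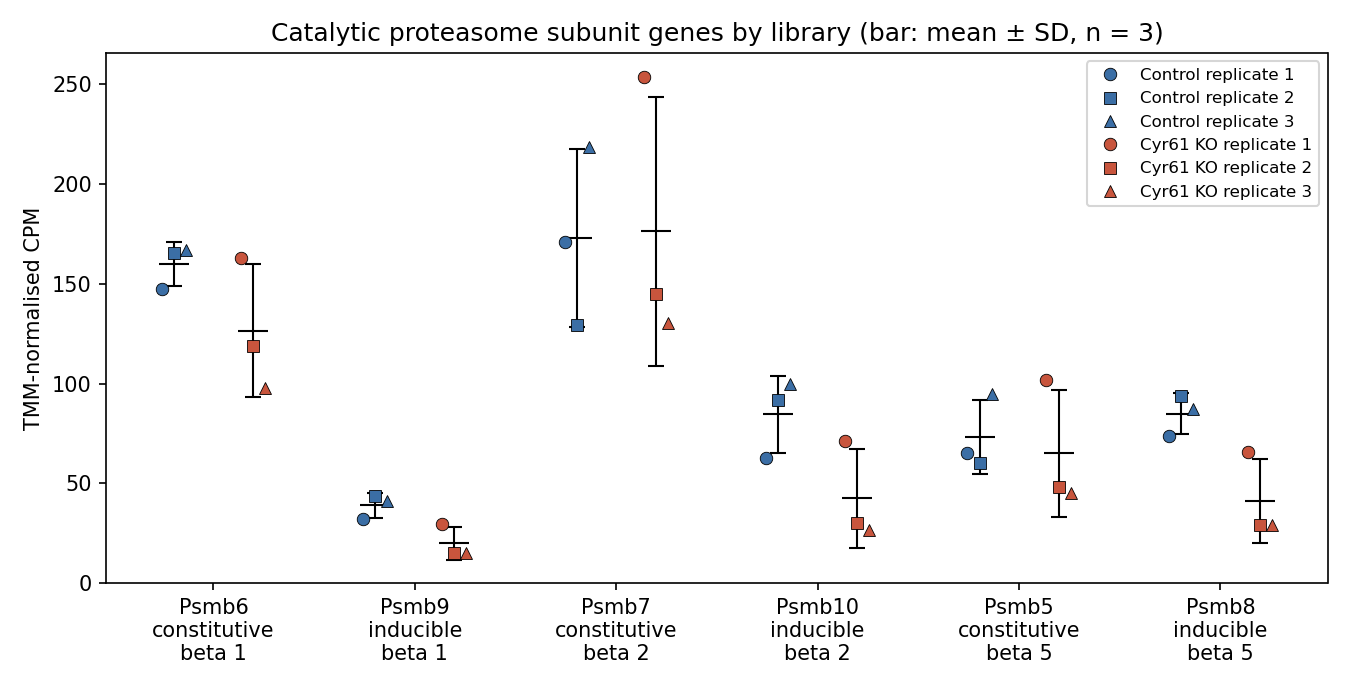
TMM-normalised CPM (vertical axis) of the 3 constitutive and 3 inducible catalytic subunit genes, 1 point per library, with mean and SD (n = 3) as bars. The inducible genes sit below all controls in Cyr61 KO replicates 2 and 3, with replicate 1 near or within the control range, while the constitutive genes overlap between the groups.

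Psmb8, the inducible subunit at the chymotrypsin-like site, stood at 73.5, 93.9 and 87.4 CPM in the controls against 65.7, 29.4 and 29.1 CPM in the knockouts. Every knockout value was below every control value, with replicate 1 close to the lowest control. Means of 85.0 ± 10.4 and 41.4 ± 21.0 CPM (SD, n = 3) gave -1.04 ± 0.33 (SE) as log2 fold change, short of the threshold (edgeR adjusted p = 0.0994). DESeq2 gave -1.02 (DESeq2 adjusted p = 0.0377).

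Psmb9, the inducible subunit at the caspase-like site, was at 32.1, 43.7 and 41.4 CPM in the controls against 29.7, 15.4 and 15.1 CPM in the knockouts. The groups again did not overlap, and replicate 1 was again the highest knockout. Its log2 fold change was -0.96 ± 0.30 (edgeR adjusted p = 0.0914, DESeq2 adjusted p = 0.0393). The Psmb9 and Tap1 gene spans overlap by 212 bases on opposite strands, which the strand-specific counts keep apart.

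Psmb10, the inducible subunit at the trypsin-like site, was at 62.6, 91.6 and 99.5 CPM in the controls against 71.2, 30.0 and 26.4 CPM in the knockouts. Cyr61 KO replicate 1 lay above control replicate 1, so the groups overlapped. For Psmb10 the log2 fold change was -0.99 ± 0.39 (edgeR adjusted p = 0.145). Without control replicate 2 the values of Psmb8, Psmb9 and Psmb10 were -0.93, -0.84 and -0.90 (edgeR adjusted p = 0.192, 0.183 and 0.263).

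The constitutive partners were measured in the same libraries. Psmb5 was at 65.2, 60.3 and 94.6 CPM in the controls against 101.8, 48.1 and 45.4 CPM in the knockouts. Psmb6 was at 147.3, 165.2 and 166.8 CPM in the controls against 162.7, 118.9 and 97.7 CPM in the knockouts. Psmb7 was at 170.9, 129.4 and 218.3 CPM in the controls against 253.3, 145.0 and 130.1 CPM in the knockouts. In each of these genes the groups overlapped, and Cyr61 KO replicate 1 had the highest knockout value. Their log2 fold changes were -0.17 ± 0.34, -0.34 ± 0.25 and 0.03 ± 0.33 (edgeR adjusted p = 0.768, 0.409 and 0.965), and the sign of the Psmb7 value turned with library totals (-0.23). These 3 genes have annotated pseudogenes (Psmb5-ps, Psmb6-ps, Psmb6-ps2 and Psmb7-ps2), and reads that mapped to several positions were not counted, so their levels are uncertain to that extent.

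A ratio of counts within a library needs no scaling between libraries. The log2 ratio of Psmb8 to Psmb5 was 0.17, 0.64 and -0.11 in the controls and -0.63, -0.71 and -0.64 in the knockouts. Cyr61 KO replicate 1, which stood out in the CPM of both genes, was level with the other knockouts in their ratio. The difference of means was -0.90, or 1.86-fold lower, with SDs of 0.38 and 0.04 (n = 3). The ratio of Psmb9 to Psmb6 was -2.20, -1.92 and -2.01 in the controls and -2.45, -2.95 and -2.69 in the knockouts, a difference of -0.66. The ratio of Psmb10 to Psmb7 was -1.45, -0.50 and -1.13 in the controls and -1.83, -2.27 and -2.30 in the knockouts, a difference of -1.11. In each pair all 3 knockouts were below all 3 controls, by a gap of 0.52, 0.26 and 0.38 between the lowest control and the highest knockout. The plot of within-library ratios shows the separation.

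**Figure D2:**
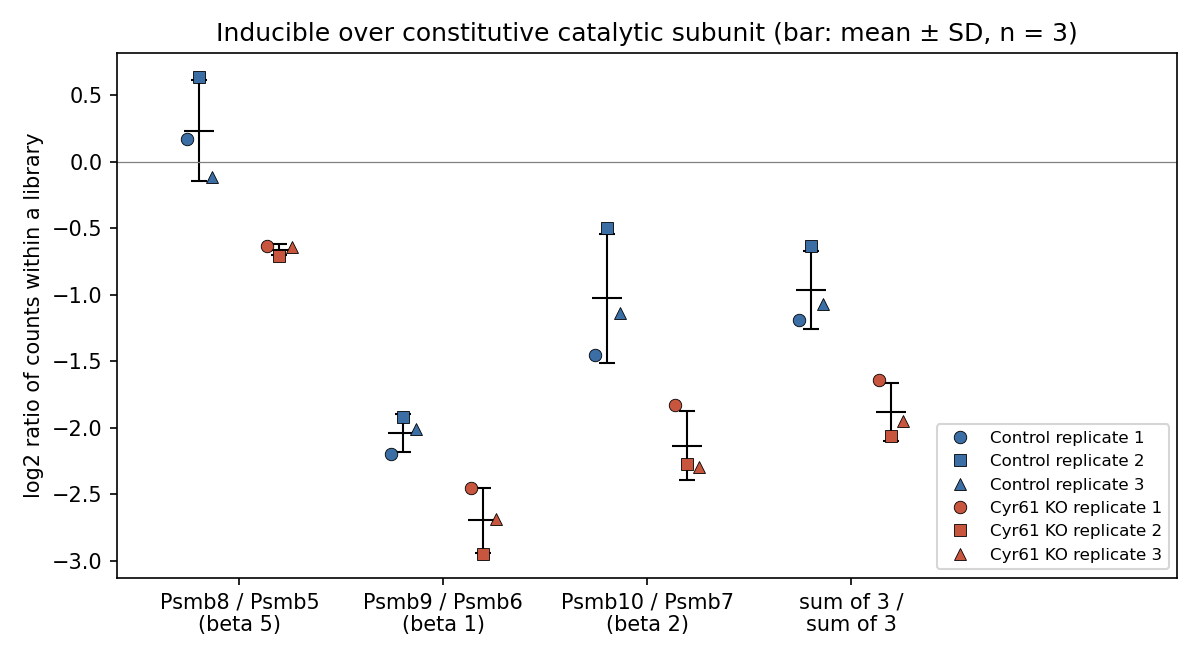
Log2 ratio of counts of the inducible over the constitutive subunit (vertical axis) for each catalytic position and for the sums, 1 point per library, with mean and SD (n = 3) as bars. All knockout points lie below all control points in each of the 4 columns, and the highest control in each is replicate 2.

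The exact two-sided permutation test of each pair gave p = 0.1, the smallest value that 3 libraries against 3 allow, and p = 0.1 after Benjamini-Hochberg adjustment over the 3 pairs and the sum. None can therefore reach 0.05. For the summed counts of Psmb8, Psmb9 and Psmb10 over those of Psmb5, Psmb6 and Psmb7, the log2 ratio was -1.19, -0.63 and -1.07 in the controls and -1.64, -2.06 and -1.95 in the knockouts. The difference was -0.92, or 1.89-fold lower. Without control replicate 2 the pair differences were -0.69, -0.59 and -0.84 and that of the sums -0.75, so all 4 kept their direction.

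Levels of different genes are comparable only per length, here as CPM per kilobase of the GENCODE principal transcript. In the controls Psmb6 was highest at 200.2 ± 13.6 (SD, n = 3), followed by Psmb7 at 149 ± 38.4, Psmb5 at 81.6 ± 20.7, Psmb10 at 64.5 ± 14.8, Psmb8 at 52.2 ± 6.40 and Psmb9 at 28.9 ± 4.55. Neighbours in this order differed by less than the sum of their SDs except Psmb7 and Psmb5, and Psmb8 and Psmb9. On this scale the inducible gene made up 39.5% ± 6.30 of the Psmb8 and Psmb5 transcript level in controls and 25.9% ± 0.555 in knockouts (SD, n = 3). For Psmb10 and Psmb7 the share was 30.6% ± 7.20 and 16.9% ± 2.63, and for Psmb9 and Psmb6 12.6% ± 1.07 and 8.40% ± 1.31. Control replicate 2 had the highest share in each pair, at 46.3%, 38.5% and 13.5%, and the other 2 controls were still above all knockouts. The transcript from which reads came was not known, so the shares depend on the lengths assumed, while the differences between groups in the log2 ratios do not.

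The PA28 activator genes lay on the same side as the immunoproteasome genes. Psme1 was at 130.3, 145.3 and 154.0 CPM in the controls against 128.3, 87.5 and 75.8 CPM in the knockouts, which gave -0.56 ± 0.26 on the log2 scale (edgeR adjusted p = 0.196). Psme2 was at 118.9, 131.1 and 164.4 CPM in the controls against 116.9, 66.3 and 58.0 CPM in the knockouts, at -0.78 ± 0.31 (edgeR adjusted p = 0.145). In both genes every knockout was below every control, but replicate 1 by under 3 CPM. Neither passed by edgeR or DESeq2, while limma voom with quality weights called both lower (-0.64 and -0.95, adjusted p = 0.0147 and 0.00642). Psme2 has a retrogene copy, Psme2b, with counts of its own, which leaves its level uncertain. Psme3 encodes the nuclear activator PA28 gamma and was at 0.33 ± 0.23 (edgeR adjusted p = 0.367), with overlapping groups.

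Psme4, the gene of the PA200 activator, had the highest log2 fold change of the members. It was at 118.4, 45.0 and 102.4 CPM in the controls against 138.2, 167.2 and 163.8 CPM in the knockouts. All knockouts were above all controls, and control replicate 2 was far below the other controls. Psme4 did not pass, at 0.82 ± 0.35 (edgeR adjusted p = 0.169), and was at 0.53 without control replicate 2 (edgeR adjusted p = 0.145). Within the activator family the values thus ran in opposite directions, -0.56 and -0.78 for the PA28 alpha and beta genes against 0.33 and 0.82 for the others.

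In the alpha ring and the non-catalytic beta ring the differences were smaller. The 8 alpha ring genes all had negative log2 fold changes, from -0.58 to -0.03 with a median of -0.17, and adjusted p from 0.436 to 0.959 (edgeR). The lowest value was that of the testis-enriched Psma8, at 0.477 to 1.41 CPM, and the next lowest was Psma7 at -0.30. Psma3 was at 172.8, 149.1 and 221.8 CPM in the controls against 272.6, 137.2 and 111.8 CPM in the knockouts, which lay on both sides of the controls. Psma4 was at 131.0, 138.3 and 130.2 CPM in the controls against 121.7, 116.4 and 93.3 CPM in the knockouts, at -0.27 with no overlap (edgeR adjusted p = 0.436). Of the non-catalytic beta genes Psmb1 to Psmb4, all 4 were negative at a median of -0.22. The most abundant of them, Psmb4, was at 241.2, 180.6 and 315.8 CPM in the controls against 335.0, 163.1 and 132.7 CPM in the knockouts.

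The 19S genes leaned the other way: 12 of 17 were positive at a median of 0.09, which turned to -0.17 with 5 of 17 positive when scaled by library totals. That scaling also moved the median of all tested genes from -0.03 to -0.30. The median of the 15 core genes without the inducible subunits, Psma8 included, moved from -0.21 to -0.46. The core median thus stayed below that of all genes and the 19S median above it. Of the 6 ATPase genes 3 were positive and 3 negative, at a median of 0.01, with Psmc3 and Psmc4 at -0.04 and 0.09. Of 11 further 19S subunit genes 9 were positive, at a median of 0.13. Without control replicate 2 these medians were -0.03, with 5 of 6 negative, and 0.07, with 4 of 11 negative. Limma voom with quality weights gave -0.10, with 5 of 6 negative, and -0.04, with 6 of 11 negative, so the lean depended on the tool. Psmd2, the scaffold subunit that holds ubiquitin receptors, was at 204.4, 138.9 and 228.0 CPM in the controls against 338.2, 270.8 and 235.1 CPM in the knockouts. All knockouts exceeded all controls, but the difference of 0.56 ± 0.28 was not called (edgeR adjusted p = 0.229). Psmd11, a lid subunit chosen after its values were seen, also showed no overlap, at 0.40 (edgeR adjusted p = 0.261). Psmd8, another lid subunit, ran against the rest at 274.7, 156.8 and 317.0 CPM in the controls against 193.9, 138.6 and 154.7 CPM in the knockouts, at -0.62 (edgeR adjusted p = 0.229). The plot of log2 fold changes by role sets these groups side by side.

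**Figure D3:**
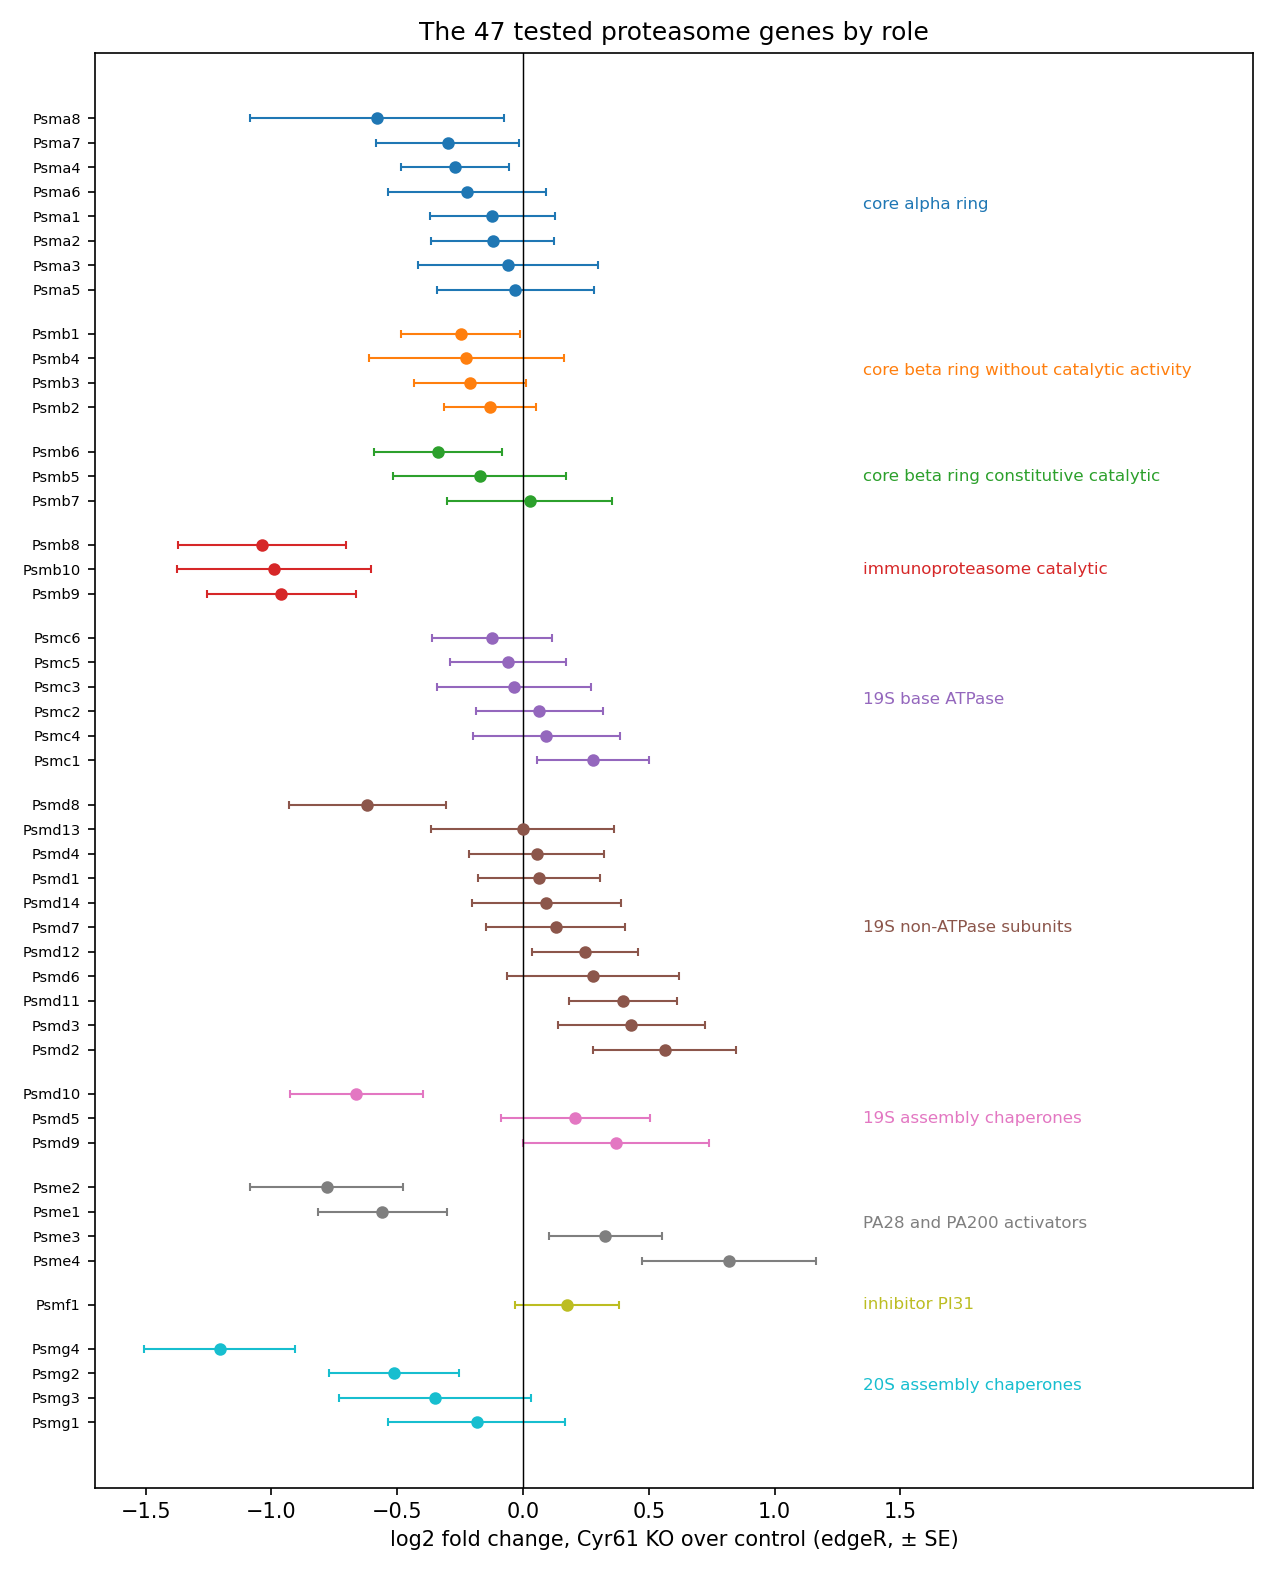
Log2 fold change of Cyr61 KO over control with its standard error (horizontal axis, edgeR) for the 47 tested proteasome genes, grouped and coloured by role. The 3 immunoproteasome genes lie between -1.04 and -0.96, most 20S core genes slightly below 0, and most 19S genes at or above 0.

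Summed over genes, the 20S core without its inducible subunits was at 1813, 1591 and 2148 CPM in the controls against 2218, 1485 and 1216 CPM in the knockouts. The 17 subunit genes of the 19S cap summed to 2110, 1642 and 2392 CPM in the controls and to 2705, 2105 and 1796 CPM in the knockouts. In both sums Cyr61 KO replicate 1 was the highest of all 6 libraries. Replicates 2 and 3 were below every control in the core sum and within the control range in the cap sum. The log2 ratio of core to cap counts, formed after the values were seen and so not tested, was -0.22, -0.05 and -0.16 in the controls and -0.29, -0.50 and -0.56 in the knockouts, without overlap.

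Over all 47 tested members the groups did not overlap in 9. In 6 the knockouts were lower (Psmb8, Psmb9, Psme1, Psme2, Psma4 and Psmg4) and in 3 higher (Psmd2, Psmd11 and Psme4), which is 12.8% and 6.38% of members. Over all tested genes the shares were 17.9% and 17.3%.

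Assembly factors gave the member with the smallest p. Psmg4, which encodes the core assembly chaperone PAC4 and was chosen after its values were seen, was at 7.42, 12.3 and 7.46 CPM in the controls against 3.54, 4.26 and 3.95 CPM in the knockouts. Control replicate 2 was high, and the knockouts were tightly grouped below all controls. Psmg4 gave a difference of -1.21 ± 0.30 in log2 units (edgeR adjusted p = 0.0616), and -0.90 without control replicate 2 (edgeR adjusted p = 0.0879). It passed by DESeq2 (adjusted p = 0.00458) and by edgeR with no low-count filter (adjusted p = 0.0484). The other PAC genes Psmg1, Psmg2 and Psmg3 were at -0.18, -0.51 and -0.35 and did not pass (edgeR adjusted p = 0.756, 0.229 and 0.571). Among the 19S assembly chaperones Psmd5 and Psmd9 were at 0.21 and 0.37 and Psmd10 (gankyrin) at -0.66, and none passed (edgeR adjusted p = 0.670, 0.539 and 0.153). Psmd10, Psmg2 and Psme3 fell outside the naming rule and complete their families. Psmf1, the gene of the inhibitor PI31, was at 0.17 (edgeR adjusted p = 0.602).

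Genes that work with the proteasome but lie outside the symbol rule were described from lists. Of 20 tested partners edgeR called 1 lower and 0 higher, at a median log2 fold change of 0.14, and DESeq2 called 2 lower and 0 higher. The called gene was Ubb, a polyubiquitin gene, which stood at 73.6, 43.2 and 64.5 CPM in the controls against 31.0, 20.1 and 23.0 CPM in the knockouts. Its log2 level fell by 1.29 (edgeR adjusted p = 0.0427). The Ubb call was lost when control replicate 1 or Cyr61 KO replicate 1, 2 or 3 was left out (edgeR adjusted p = 0.0970, 0.0885, 0.199 and 0.0654), with log2 fold changes from -1.48 to -1.08. Ubb was lower in every knockout than in every control. Vcp, the segregase that extracts tagged proteins, and the shuttle factor genes Rad23b and Ubqln1 were at 0.57, 0.46 and 0.68 and did not pass (edgeR adjusted p = 0.289, 0.283 and 0.181).

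In the list for NRF1, the transcription factor that raises proteasome genes when proteasome activity is short, edgeR called 0 of 9 genes, at a median of 0.22. At an unadjusted p under 0.05 there were 1 lower and 2 higher, and DESeq2 called the same numbers, 1 lower and 2 higher. Nfe2l1, the NRF1 gene itself, was at 127.6, 95.2 and 130.9 CPM in the controls against 150.7, 165.0 and 174.0 CPM in the knockouts, a difference of 0.47 on the log2 scale (edgeR adjusted p = 0.219). Nfe2l2, the NRF2 gene, was at -0.37 (edgeR adjusted p = 0.305). Groups did not overlap in either gene, with Nfe2l1 higher and Nfe2l2 lower in the knockouts. Ddi2, the protease that activates NRF1 and a gene chosen after its values were seen, was at 17.1, 4.06 and 19.5 CPM in the controls against 34.9, 57.5 and 47.7 CPM in the knockouts, at 1.78 (edgeR adjusted p = 0.0772). Without control replicate 2 the Ddi2 value was 1.38 and was called (edgeR adjusted p = 0.0430), as it was without control replicate 3 (edgeR adjusted p = 0.0465). Ddi2 was not called without control replicate 1 or Cyr61 KO replicate 1, 2 or 3 (edgeR adjusted p = 0.0965, 0.128, 0.250 and 0.0956).

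In the interferon gamma list edgeR called 0 of 10 tested genes, at a median of -0.58, with 3 lower and 0 higher at an unadjusted p under 0.05 and as many by DESeq2. Ifng itself did not pass the low-count filter. Irf1, an interferon-induced transcription factor and an inducer of Psmb9, was at 47.8, 62.9 and 50.2 CPM in the controls against 53.9, 27.2 and 32.3 CPM in the knockouts, at -0.50 (edgeR adjusted p = 0.268). The Irf1 groups overlapped through Cyr61 KO replicate 1. That library also had the highest levels of the knockouts in the immunoproteasome genes, and likewise in Psmb5, Psmb6 and Psmb7. A link of Irf1 to these levels was not tested. The kinase gene Jak1 and the receptor gene Ifngr2 were at 0.17 and -0.66 (edgeR adjusted p = 0.658 and 0.193).

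In the class I peptide loading list edgeR called 0 of 11 genes, at a median of 0.06, with 1 lower and 1 higher at an unadjusted p under 0.05, and DESeq2 called 1 lower. Tap1, named here as the neighbour of Psmb9, was at 48.2, 47.6 and 43.7 CPM in the controls against 42.0, 35.9 and 43.2 CPM in the knockouts, at -0.20 (edgeR adjusted p = 0.495). The groups were separate by under 1 CPM. The log2 ratio of Psmb9 to Tap1, formed after the values were seen, was -0.59, -0.12 and -0.08 in the controls and -0.50, -1.22 and -1.51 in the knockouts, with overlap through replicate 1 of both groups. B2m, the class I light chain, was at -0.51, and the heavy chain gene H2-K1, whose near copies make its count uncertain, at 0.06 (edgeR adjusted p = 0.290 and 0.915). Calr and Pdia3, chaperones of class I folding, were at 0.39 and 0.43 (edgeR adjusted p = 0.409 and 0.383).

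Summed markers of immune cells were lower in the knockouts, as were the inducible subunits, and markers of other cell types also differed. The 6 pan-leukocyte markers summed to 221, 562 and 185 CPM in the controls against 72.2, 49.7 and 136 CPM in the knockouts, with 2 of 6 called lower, 6 of 6 negative, and none at 0 in any library. The 8 macrophage markers summed to 1111, 1379 and 778 CPM in the controls against 248, 171 and 477 CPM in the knockouts, with 5 of 8 called lower and none at 0 in any library. Lyz2 and Ctss made up most of each sum. All 8 were negative, but Adgre1, Csf1r and Cd68 overlapped between groups, at -0.52, -0.68 and -1.41 (edgeR adjusted p = 0.451, 0.233 and 0.121). The part of immune cell markers in the lower ratios was not tested, and in bulk tissue fewer cells of a type and less RNA per cell cannot be told apart. Dendritic and antigen-presenting markers summed to 1244, 2790 and 969 CPM in the controls against 337, 160 and 343 CPM in the knockouts, with 4 of 6 called lower. T and NK cell markers summed to 7.05 to 72.3 CPM in the controls and to 3.23 ± 0.254 CPM (SD, n = 3) in the knockouts, with 0 of 7 called by edgeR, 7 of 7 lower at an unadjusted p under 0.05 and 6 called by DESeq2. B cell markers summed to 4.73 to 24.0 CPM in the controls and 2.32 to 4.23 CPM in the knockouts, with 0 of 4 called. Control replicate 2 had the highest sum in each of these 5 lists. Without it the median log2 fold changes moved from -1.86 to -1.18 for leukocytes and from -2.19 to -1.95 for macrophages. Those of antigen-presenting cells moved from -2.51 to -1.91 and those of T and NK cells from -3.14 to -1.74. In these lists 2, 3, 4 and 0 markers were then called lower. The B cell median moved from -1.80, with 4 of 4 negative, to -0.16, with 2 of 4 negative and 0 called.

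Cholangiocyte markers summed to 270, 1362 and 233 CPM in the controls against 96.7, 80.1 and 157 CPM in the knockouts, with 5 of 5 negative and 0 called by edgeR but 4 at an unadjusted p under 0.05 and 3 called by DESeq2. Of these sums Spp1 alone was 221, 1113 and 193 CPM in the controls against 69.0, 61.9 and 126 CPM in the knockouts. Krt7, Krt19 and Epcam were at -2.56, -3.06 and -3.19 on the log2 scale. Sox9 was at -0.84 with overlapping groups (edgeR adjusted p = 0.267). Stellate cell and fibroblast markers summed to 460 to 774 CPM in the controls and 195 to 364 CPM in the knockouts. In this list 3 of 5 were negative and 1 was called lower (Col1a1, a fibrillar collagen gene, named after its value was seen). The other 2, Lrat and Reln, were at 0.09 and 0.05 with overlapping groups (edgeR adjusted p = 0.840 and 0.918). Endothelial markers summed to 80.0 to 119 CPM in the controls and 132 to 175 CPM in the knockouts, with 2 of 4 called higher, and 1 of 4 without control replicate 2. Hepatocyte markers summed to 38296 to 96472 CPM in the controls and 105189 to 125252 CPM in the knockouts, with 0 of 7 called by edgeR and 1 called higher by DESeq2. Without control replicate 2 the cholangiocyte median log2 fold change moved from -2.57 to -1.24, with 5 of 5 still negative. The stellate cell and fibroblast median moved from -0.85 to -0.57. That of hepatocytes moved from 0.67, with 1 of 7 negative, to 0.35, with 2 of 7 negative. The negative hepatocyte marker with all libraries was Ass1, at only 3 to 16 counts per library. Alb made up most of each hepatocyte sum. The part of these cell types in the proteasome gene values was not tested. The plot of the summed ratio against marker sums gives each library's position.

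**Figure D4:**
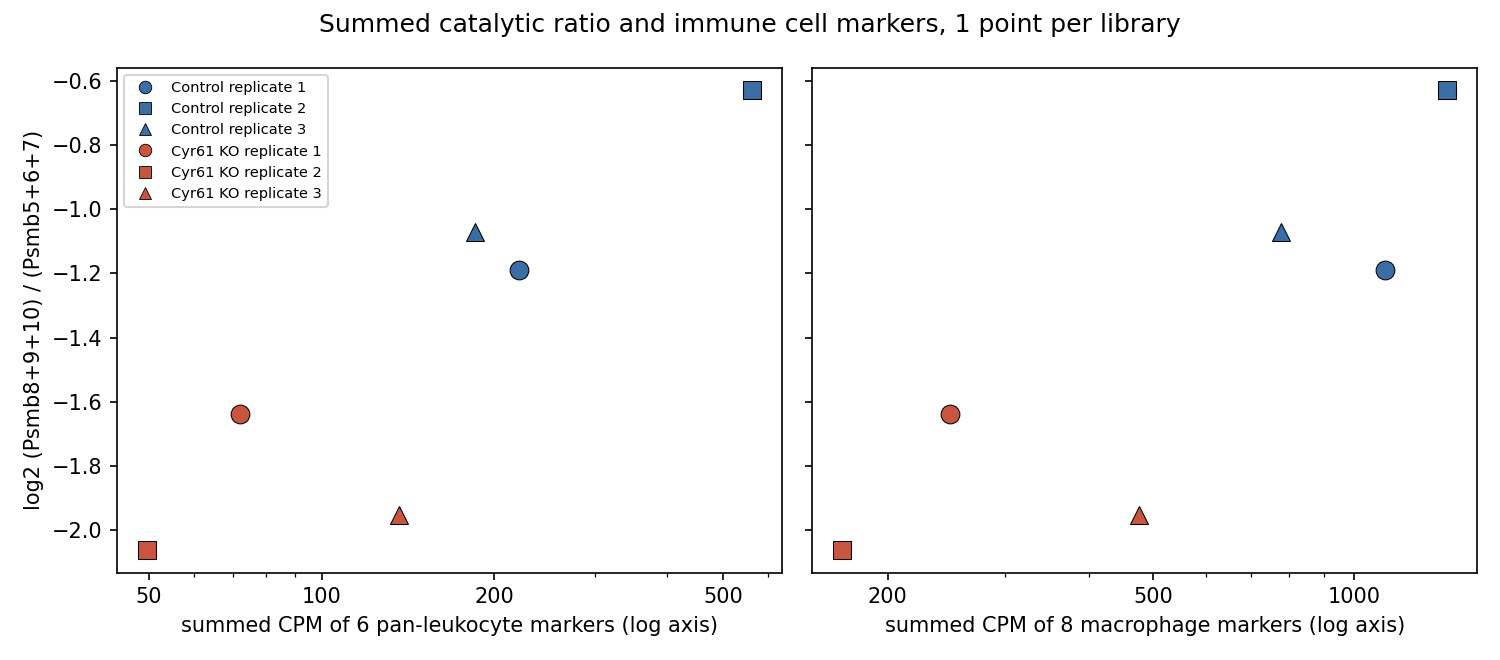
Log2 ratio of summed inducible over summed constitutive catalytic subunit counts (vertical axis) against the summed CPM of 6 pan-leukocyte markers (left) and 8 macrophage markers (right), on log horizontal axes, 1 point per library. Controls lie to the upper right of the knockouts, and control replicate 2 has the highest value on both axes. Within the knockouts the order differs: replicate 3 has the highest marker sums and replicate 1 the highest ratio. Control replicate 3 has lower marker sums than control replicate 1 but a higher ratio.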

How the data were processed

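RNA of 6 liver samples was sequenced from directional libraries. The authors deposited read counts per gene, 1 table per library, for either strand and unstranded. The submitters' processing notes name Trimmomatic 0.38, STAR 2.6.1a and the builds hg38 and mm10. Annotation and mapping settings: not given in the sources used here. The reverse-strand counts were used, since the opposite strand held 0.928% to 1.35% of stranded counts. Reads that were unmapped, ambiguous, in several positions or outside genes stayed out of library sizes. A table of the whole series equalled the unstranded counts in 100% of rows.

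All genes were fitted with edgeR 4.0.16 (R 4.3.3): filterByExpr (minimum count 10, minimum total 15), TMM, quasi-likelihood F test, two-sided, Benjamini-Hochberg over 13563 genes, threshold 0.05. Standard errors come from dividing each absolute log2 fold change by the root of its F statistic. Ratios used a pseudocount of 0.5. DESeq2 1.42.0 and limma 3.58.1 (voom) were alternatives. Members and lists were chosen with earlier results of these data known. The naming rule for values per library took Psmb5 to Psmb10, Psme1, Psme2, called members and the 2 most abundant members of each role. Partner genes were taken where called or among the 4 most abundant of a list. For some members that the rule takes, among them Psmb1, Psmc3 and Psmg1, values per library are not reported here. Tested on simulated data of the same comparison (13563 genes, 200 changed, 3 simulations), edgeR recovered 14% of 2-fold and 71.3% of 4-fold changes, and DESeq2 34% and 84.7%, with 8.33 and 40.3 false calls per simulation. No libraries agreed within sampling noise (chi-square per degree of freedom 57.8 or more). Some genes that the naming rule for partner genes takes are not reported here.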

Additional observations from a re-analysis of the deposited data

How the results depend on the processing

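The counts of called proteasome genes depended on the test. DESeq2 called 3 lower, limma voom with quality weights 10 lower and 1 higher, and edgeR without a low-count filter 1 lower, where voom called 17.8% of all genes lower and 15.3% higher. The counts were 0 with DESeq2's size factors in edgeR, with library totals, with unstranded counts and with a filter at 1 CPM in 3 libraries. Leaving out each library in turn gave 0 to 0 members, while the share of all genes called lower ran from 0.0215% (without Cyr61 KO replicate 1) to 5.17% (without control replicate 3). The median of the members was -0.37 with library totals, a scaling that moved the median of all genes from -0.03 to -0.30, and -0.33 to 0.056 when leaving out each library. The pair ratios stayed negative in every setting run: leaving out 1 library gave -1.07 to -0.69 for Psmb8 to Psmb5, -0.78 to -0.53 for Psmb9 to Psmb6, -1.32 to -0.84 for Psmb10 to Psmb7 and -1.04 to -0.75 for the sums, with exact p of 0.1 to 0.2. Unstranded counts and pseudocounts of 1 and 5 moved no ratio by 0.01. Psmb8, Psmb9 and Psmb10 were at -1.53, -1.34 and -1.57 without Cyr61 KO replicate 1 (edgeR adjusted p = 0.0615, 0.0697 and 0.0771).

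Signs turned for genes near 0, and the cause was not tested. Psmb7 was at -0.28 with voom, -0.23 with library totals, -0.0095 with the CPM filter and -0.0018 with the replicate block, Psmc4 at -0.11 with voom and -0.17 with library totals, Psmd5 at -0.044 with voom and -0.0019 with library totals, and Psmf1 at -0.061 with library totals. Leaving out 1 library gave -0.64 to 0.069 for Psmb5, -0.32 to 0.25 for Psmb7, -0.53 to 0.19 for Psma3, -0.73 to 0.030 for Psmb4, -0.35 to 0.16 for Psmc3, -0.18 to 0.28 for Psmc4, -0.049 to 0.65 for Psmd9, -0.051 to 0.44 for Psmd5 and -0.67 to 0.060 for Psmg1.

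Libraries of both groups share replicate numbers 1 to 3. Deviations from the group means correlated at -0.06, -0.24 and -0.45 between same-numbered libraries, and at -0.19 to 0.36 between the others. With means of 3 libraries these correlations cannot decide whether the numbers mark pairs, and the main fit assumed no pairing. With the replicate block edgeR called 0 members lower and 0 higher, 633 genes in all against 467, and the summed ratio differed by -0.92 with an exact sign-flip p of 0.25, the smallest possible.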
